A study of Homo sapiens with 9 samples.

Results

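The 10 genes described here encode cytosolic heat shock proteins and a partner protein: HSPA1A, HSPA1B and HSPA8 (HSP70), HSPH1 (HSP110), HSP90AA1 and HSP90AB1 (HSP90), HSPB1 (small heat shock protein), DNAJB1 and DNAJA1 (J-domain proteins) and BAG3 (a co-chaperone). They were chosen by gene symbol, with earlier results of these data known. All 10 were found in both deposited gene tables, which together hold 32449 genes. The RNA came from HCT-116 cells, a long-established line from a human colorectal tumour, and was sequenced in 3 groups with 3 libraries each. ORF cells carried a stably expressed open reading frame taken from LINC00266-1, which is annotated as a long noncoding RNA but encodes a peptide. The cells labelled MT were described as stably carrying the construct 5'UTR-ORFmut, in which the ATG start codon of this frame is changed to ATT. NC cells carried a blank vector. All cells grew in RPMI 1640 medium with fetal bovine serum, and total RNA was extracted with Trizol. The sources used here do not say whether a line was 1 clone or whether replicates were separate cultures, so each p-value reflects the spread between these libraries alone, which may be technical. In bulk RNA of this kind, fewer cells with a transcript and less of it per cell cannot be told apart.

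Chaperones bind unfolded or partly folded proteins and release them in cycles of ATP hydrolysis. J-domain proteins deliver clients to HSP70 and start its ATP hydrolysis, HSP110 exchanges its nucleotide, small heat shock proteins hold unfolded proteins without ATP, and HSP90 acts late, on proteins near their native fold. Each of the HSP70 and HSP90 families has members that are present at all times and members that heat shock factor 1 (HSF1) induces under stress. HSF1 binds heat shock elements, inverted repeats of a short GAA unit, in the promoters of these genes. In colon cancer cells, as in other tumour cells, cytosolic chaperones are abundant without heat.

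Recovered reads per library, over the genes that both tables share, numbered between 19459198 (ORF replicate 2) and 24369596 (MT replicate 2). LINC00266-1 held 9951, 10229 and 10310 reads in the ORF libraries. It held 1, 0 and 0 reads in the libraries labelled MT, which goes against the label, and 1, 0 and 0 reads in the NC libraries. Every direction drawn below from the libraries labelled MT rests on that label. PKM, a pyruvate kinase gene outside the group described here, took 4.34%, 3.67% and 5.54% of reads in the ORF libraries, against at most 0.342% in any other library. The summed normalized reads of 9 colon epithelial markers lay between 99256 and 154759 in ORF, against 87644 and 107981 in NC, and in the other table between 105732 and 167408 in the libraries labelled MT, against 96276 and 117855 in NC. The groups overlapped in both tables, and VIL1 and LGALS4 stayed under 20 in every library. Of 7 fibroblast markers 6 stayed under 20 in every group, with list sums of 429 to 484 in ORF against 465 to 548 in NC, and of 598 to 687 in the libraries labelled MT against 509 to 602 in NC. All 4 blood cell markers in the ORF table were under 20. The part of these markers in the results below was not tested.

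Promoter sequences are shown because heat shock elements are the known route by which HSF1 acts on genes of this kind. RefSeq windows on GRCh38.p14, from 250 bases before to 50 bases after a start site, were matched by symbol: all 10 genes matched, with 15 windows, since HSP90AB1, HSP90AA1 and DNAJB1 have more than 1 listed start. They were searched on both strands for 3 adjoining units (TTCNNGAANNTTC or its reverse complement GAANNTTCNNGAA) and for 2 (GAANNTTC, its own reverse complement, which lies within every match of 3 units). Matches of 3 units were found in 4 of 15 windows, against 0.49% of all 35116 windows, and matches of 2 units in 9 of 15, against 6.77%. Sites wholly before the start site were, with the match in capitals and 5′ to 3′ on the gene's own strand:
HSP90AB1, chr6:44247770-44247798, plus strand, 152 bases before the start: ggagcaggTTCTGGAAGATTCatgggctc
HSP90AB1, chr6:44247823-44247851, plus strand, 99 bases before the start: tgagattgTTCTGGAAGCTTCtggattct
HSP90AA1, chr14:102087112-102087140, minus strand, 75 bases before the start: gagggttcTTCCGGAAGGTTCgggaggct
HSPA8, chr11:123062346-123062374, minus strand, 217 bases before the start: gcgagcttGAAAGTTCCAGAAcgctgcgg
HSPA8, chr11:123062171-123062199, minus strand, 42 bases before the start: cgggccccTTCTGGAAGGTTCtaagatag
HSPA1A, chr6:31815426-31815455, plus strand, 98 bases before the start: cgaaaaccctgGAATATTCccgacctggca
HSPA1B, chr6:31827622-31827651, plus strand, 97 bases before the start: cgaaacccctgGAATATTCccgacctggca
HSPB1, chr7:76302480-76302509, plus strand, 174 bases before the start: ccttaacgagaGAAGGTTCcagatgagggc
DNAJA1, chr9:33025064-33025093, plus strand, 190 bases before the start: aaagggctccaGAAGATTCcacgagcgccg
DNAJB1, chr19:14518456-14518485, minus strand, 69 bases before the start: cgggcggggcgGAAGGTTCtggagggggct
DNAJB1, chr19:14518426-14518455, minus strand, 39 bases before the start: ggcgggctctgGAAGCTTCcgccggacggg
The windows of BAG3 and HSPH1 held no match, which says only that these letters are not in them. Distances are to the start of the window that holds the site. Both HSP90AB1 sites came from the window 44247693 to 44247992, and this gene's windows 44245944 to 44246243 and 44246851 to 44247150 held none. In NC, 16621, 19056 and 15875 reads joined an exon before 44247693 to the exon with the start codon. In those transcripts both HSP90AB1 sites lie in an intron. Windows 102139700 to 102139999 (HSP90AA1) and 14529222 to 14529521 (DNAJB1) also held no match. The HSP90AB1, HSP90AA1 and HSPA8 sites, and no other shown, have 3 units. The DNAJA1 window also held 1 match of 3 units, which is not wholly before the start site and is not shown. Matches of 3 units wholly before the start site were found in 3 of 15 windows, against 0.441% of all windows. Those of 2 units were found in 8 of 15, against 5.78%.

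HSPA1A and HSPA1B lie on chromosome 6 (GRCh38, 31815464 to 31817946 and 31827735 to 31830255), have 1 exon each and encode the stress-inducible HSP70. Their coding sequences of 1926 bases differ at 4 positions (identity 99.79%, GENCODE 29), and the longest stretch without a difference spans 1709 bases. The stretch with the most differences is shown because reads over such positions tell the genes apart; the capitals mark the bases that differ:
HSPA1A, chr6:31817647-31817676, plus strand: tctgggtcaggcccCaccattgaggaggtA
HSPA1B, chr6:31829841-31829870, plus strand: tctgggtcaggcccTaccattgaggaggtG
The sources used here do not say how reads that match both genes were counted, so the levels of this pair are uncertain one by one.

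Levels between genes are compared in reads per kb of exon scaled to library size (RPKM), computed from the recovered reads with all annotated exons of a gene as its length. HSP90AB1, the constitutive HSP90, was the highest member in every group, with 1778 ± 70.3 RPKM in ORF, 1653 ± 115 in the libraries labelled MT and 1751 ± 51.0 in NC (SD, n = 3 each). In NC it ranked 18 among all shared genes on that scale. Next in NC came HSP90AA1, the stress-inducible HSP90, with 462 ± 46.2 RPKM, then HSPA8, the constitutive HSP70, with 347 ± 25.8, and HSPB1 with 343 ± 15.9. The NC libraries of HSPA8 and HSPB1 overlapped, so their order is not resolved. HSP90AA1 had 326 ± 132 RPKM in ORF and 378 ± 64.6 in MT-labelled libraries, HSPA8 had 420 ± 63.5 and 312 ± 37.7 RPKM in these groups, and HSPB1 had 430 ± 56.9 and 388 ± 61.0 RPKM. In ORF the libraries of all 3 genes overlapped. In the libraries labelled MT, HSPB1 lay above HSPA8 in all 3, and HSP90AA1 overlapped with both. The order of these 3 genes depends on the length used. All annotated exons of HSPA8 span 4849 bases, against 2463 for its longest transcript. For HSP90AA1 the lengths are 5248 and 3510 bases, and for HSPB1 they are 1634 and 1455.

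A middle tier in NC held DNAJA1 (71.7 ± 2.68 RPKM), DNAJB1 (67.6 ± 3.29), HSPA1B (49.7 ± 4.33) and BAG3 (44.7 ± 1.41). DNAJA1 overlapped with DNAJB1 in these libraries, and HSPA1B with BAG3. In ORF the same tier had 73.4 ± 16.9 RPKM for DNAJA1, 82.2 ± 8.69 for DNAJB1, 58.6 ± 8.88 for HSPA1B and 64.3 ± 6.33 for BAG3. In the libraries labelled MT it had 63.6 ± 12.6, 75.7 ± 3.21, 52.9 ± 1.53 and 46.7 ± 0.962 RPKM. HSPH1 was lower in all groups (17.6 ± 5.50 RPKM in ORF, 14.7 ± 2.85 in the libraries labelled MT and 18.2 ± 1.37 in NC). HSPA1A was the lowest member, with 6.17 ± 2.44, 4.96 ± 0.443 and 4.30 ± 0.897 RPKM in the same order of groups; its reads numbered 170 to 440 per library, against at least 2108 for every other member. Together the members took 0.960%, 1.12% and 1.14% of reads in the ORF libraries, 1.02%, 0.899% and 1.05% in the libraries labelled MT and 1.09%, 1.07% and 1.06% in NC.

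**Figure D1:**
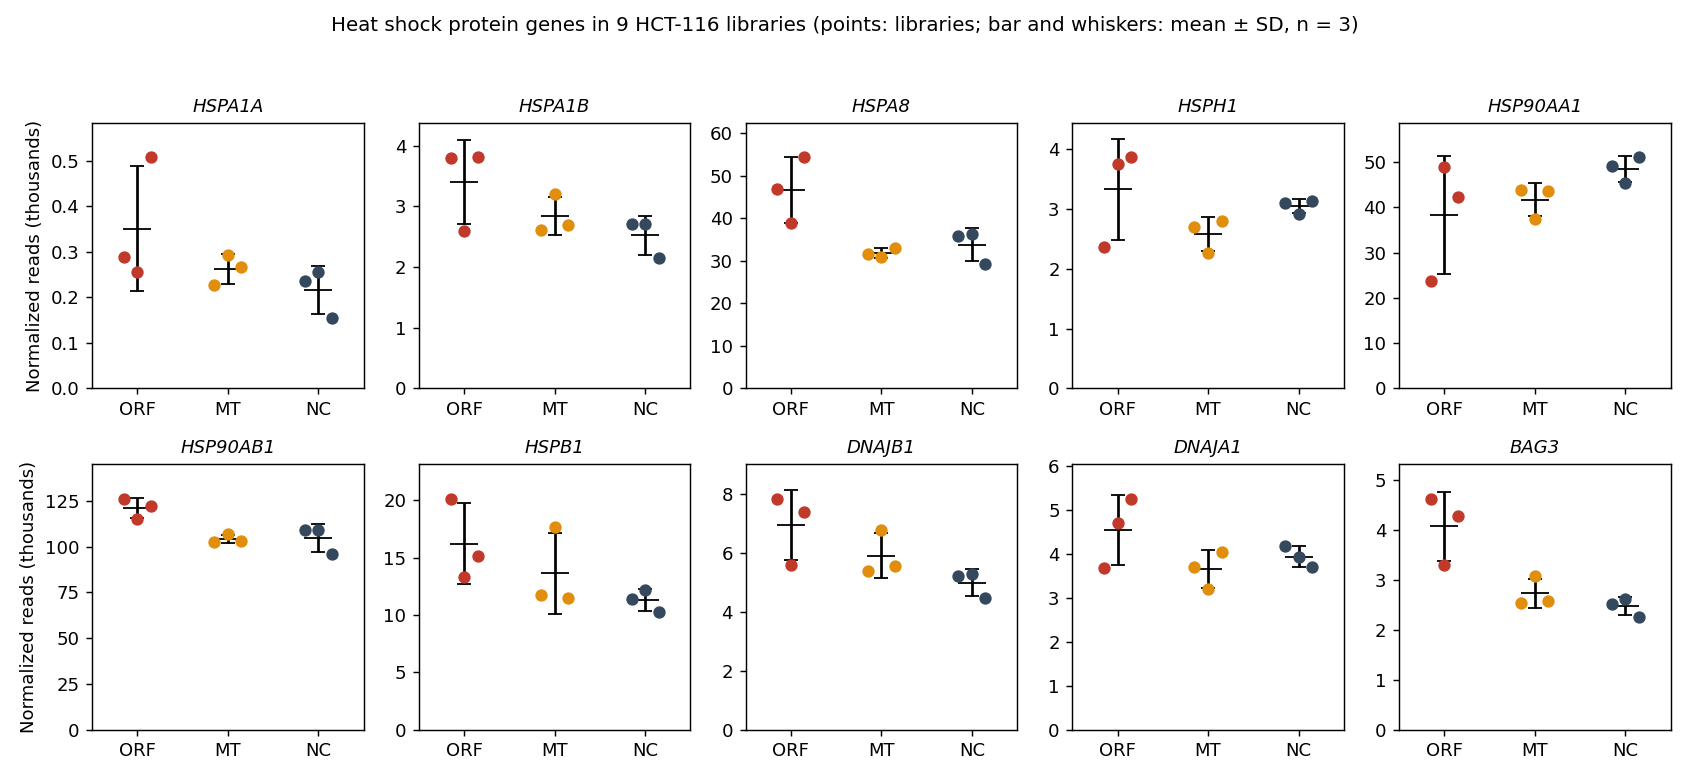
Normalized reads (in units of 1000, linear axes from 0, 9 libraries on 1 scale) of the 10 genes in ORF, MT and NC libraries; each point is a library, and the bar with whiskers is the mean ± SD of 3. BAG3 in ORF (3302 to 4626 normalized reads) lay above both other groups, and ORF replicate 1 stood far below the other ORF libraries for HSP90AA1.

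ORF against NC is the comparison of cells with and without the reading frame. In the deposited values (read counts divided by a size factor, called normalized reads), 9 of 10 members had a positive log2 fold change, and 5 lay higher in all 3 ORF libraries than in any NC library: BAG3, HSPA8, HSPB1, DNAJB1 and HSP90AB1. Of all 24662 genes tested, 11.5% lay higher in all 3 ORF libraries, and 46.2% had a positive fold change. None of the members lay lower in all 3 ORF libraries, against 10.1% of all genes. The limma test with adjustment over all of these genes called 0 of 10 members at an adjusted p below 0.05, where it called 0.418% of all genes. At an unadjusted p under 0.05 stood 6 members, all higher in ORF, against 15.7% of all genes in either direction and 8.06% higher; edgeR on the recovered reads called 1 member, BAG3, and 0.596% of all genes. The median log2 fold change was 0.43 over the members and -0.04 over all genes tested. Because the members were chosen with earlier results of these data known, these counts and medians are descriptive and not independent support.

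BAG3 (ENSG00000151929, chromosome 10, 119651370 to 119677819), the co-chaperone that releases nucleotide from HSP70 and links it to small heat shock proteins and selective autophagy, had the highest fold change of the 10. It had 4465, 3207 and 4149 normalized reads in the ORF libraries, against 2448, 2545 and 2194 in the NC libraries. The groups did not overlap, and ORF replicate 2 was the lowest of its group. The log2 fold change was 0.71 ± 0.15 (SE, n = 3 each; limma adjusted p = 0.0688), which does not pass the threshold. It passed with edgeR (adjusted p = 0.0487) and with DESeq2 (adjusted p = 0.00174), which called 2.27% of all genes. It also passed in the authors' deposited test, which is not named (adjusted p = 0.00111, with 558 of 30973 genes called). The log2 fold change was 0.72 both there and with DESeq2. All of these tests use the same libraries and are not independent of each other. With limma it stayed above the threshold without ORF replicate 3 (adjusted p = 0.358) and without any NC library (0.226 to 0.357), and passed without ORF replicate 1 (0.0114) or replicate 2 (0.00552).

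Of the J-domain proteins, DNAJB1, the stress-inducible one that recruits HSP70 to aggregates, had 7587, 5438 and 7180 normalized reads in ORF, against 5074, 5140 and 4326 in NC. The groups did not overlap, with ORF replicate 2 nearest to NC (log2 fold change 0.46 ± 0.15; limma adjusted p = 0.191). DNAJA1, which serves constitutive HSP70, had 3550, 4563 and 5093 normalized reads in ORF and 4058, 3808 and 3584 in NC. The groups overlapped, since ORF replicate 1 was below every NC library (0.19 ± 0.15; adjusted p = 0.544). The fold change was 0.34 without ORF replicate 1 and 0.08 without ORF replicate 3.

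HSPB1, the small heat shock protein HSP27, had 19453, 12924 and 14719 normalized reads in ORF, against 11073, 11838 and 9924 in NC. All 3 ORF libraries were higher, and ORF replicate 1 stood apart at the top (log2 fold change 0.50 ± 0.16; limma adjusted p = 0.191).

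Among the HSP70 genes, HSPA8 had 45182, 37729 and 52750 normalized reads in ORF, against 34734, 35448 and 28379 in NC, with no overlap (log2 fold change 0.45 ± 0.17; limma adjusted p = 0.240). HSPA1B had 3666, 2525 and 3694 normalized reads in ORF and 2629, 2639 and 2081 in NC. ORF replicate 2 lay within the NC range while the other two ORF libraries lay above it (0.41 ± 0.17; adjusted p = 0.278). HSPA1A had 279, 247 and 492 normalized reads in ORF and 229, 249 and 151 in NC, and the groups again overlapped through ORF replicate 2 (0.66 ± 0.26; adjusted p = 0.272). Its fold change was 0.36 without ORF replicate 3 and 0.44 without NC replicate 3 (adjusted p = 0.589 and 0.673). With the pair summed as 1 row, since its reads may be divided between the genes, the adjusted p was 0.265. HSPH1, the HSP110 that exchanges the nucleotide of HSP70, had 2281, 3653 and 3751 normalized reads in ORF and 3015, 2846 and 3036 in NC. Its ORF libraries lay on both sides of NC (0.09 ± 0.18; adjusted p = 0.839), and the fold change turned to -0.03 with quantile normalization. With a correction for GC content and transcript length it was 0.27 ± 0.10 (limma adjusted p = 0.134).

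The HSP90 genes differed in direction. HSP90AB1 had 121970, 111755 and 118507 normalized reads in ORF, against 105975, 106367 and 93113 in NC, all higher in ORF (log2 fold change 0.21 ± 0.16, limma adjusted p = 0.544). This depends on the scaling of the libraries. In RPKM the groups overlapped, with 1698, 1832 and 1803 in ORF against 1786, 1776 and 1693 in NC. With quantile normalization the fold change was -0.09. HSP90AA1 had 22997, 47516 and 41008 normalized reads in ORF, against 47617, 44219 and 49493 in NC. ORF replicate 1 held less than any other library, and ORF replicate 2 lay within the NC range. It was the only member with a negative fold change here (-0.41 ± 0.23; adjusted p = 0.417), and the value was -0.09 without ORF replicate 1 (adjusted p = 0.759) and -0.62 without ORF replicate 2.

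**Figure D2:**
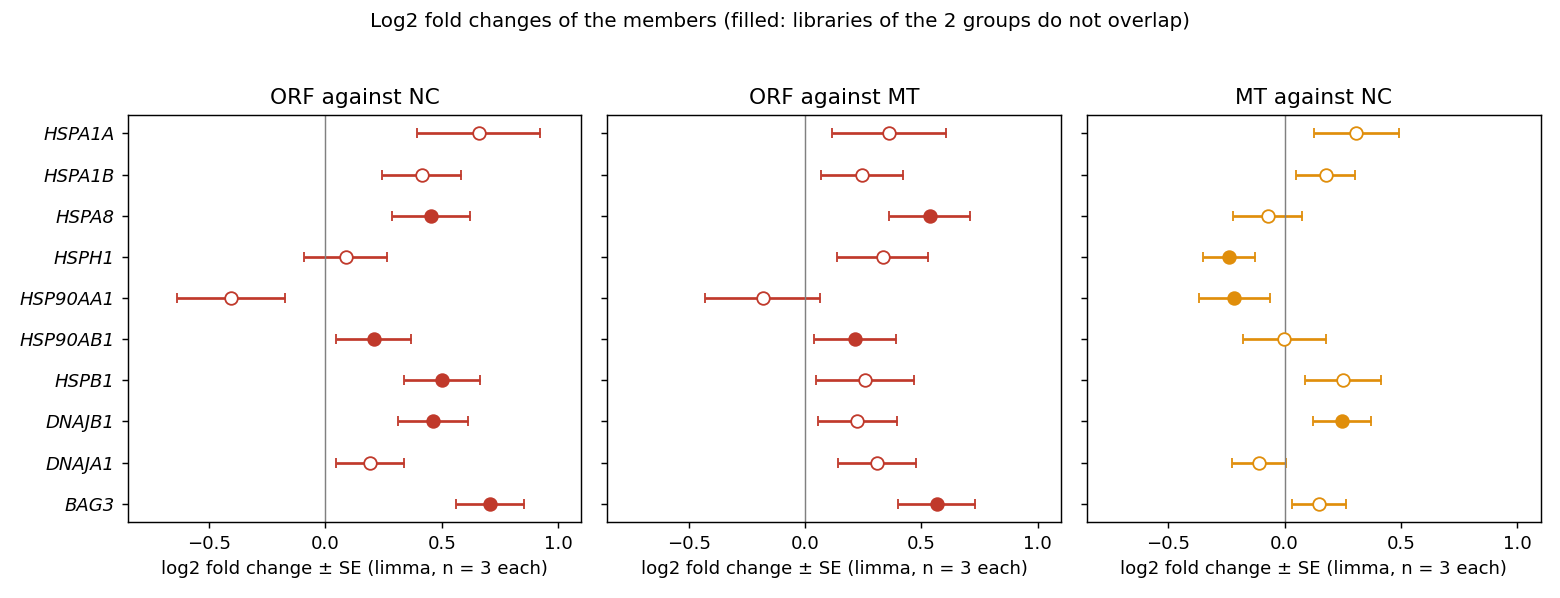
Log2 fold change ± SE (limma, 3 libraries per group) of the 10 genes in ORF against NC, ORF against MT and MT against NC. Filled points are genes whose libraries do not overlap between the groups: 5 in ORF against NC, 3 in ORF against MT and 3 in MT against NC; no gene passed the adjusted threshold in any panel.

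ORF was set against the libraries labelled MT on recovered reads of all 9 libraries brought to 1 scale. Limma called 0 of 10 members, where it called 0.365% of 24404 genes; edgeR on the same libraries called 0 members and 0.43% of genes. There 2 members, BAG3 and HSPA8, had an unadjusted p under 0.05, both higher, against 13.1% of all genes in either direction and 5.81% higher. BAG3, HSPA8 and HSP90AB1 lay higher in all 3 ORF libraries, against 9.88% of all genes, and none lay lower in all 3, against 9.6%. Fold changes were positive for 9 members and for 46.9% of all genes. BAG3 had 4626, 3302 and 4277 normalized reads in ORF, against 2545, 3067 and 2581 in the libraries labelled MT, so the nearest libraries of the groups were ORF replicate 2 and MT replicate 2 (log2 fold change 0.57 ± 0.16; limma adjusted p = 0.174). HSPA8 had 46807, 38854 and 54376 normalized reads in ORF, against 31694, 30879 and 33147 in the libraries labelled MT. These were narrow in their group and all below ORF (0.54 ± 0.17; adjusted p = 0.222). HSP90AB1 had 126356, 115087 and 122160 normalized reads in ORF, against 102443, 106978 and 103330 in the libraries labelled MT (0.22 ± 0.18, adjusted p = 0.654). In RPKM these groups overlapped for HSP90AB1, with 1698 in ORF replicate 1 and 1743 in MT replicate 3.

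The other 7 members overlapped between ORF and the libraries labelled MT. Their log2 fold changes were 0.36 ± 0.24 for HSPA1A, 0.25 ± 0.18 for HSPA1B, 0.33 ± 0.20 for HSPH1 and 0.26 ± 0.21 for HSPB1. They were 0.23 ± 0.17 for DNAJB1, 0.31 ± 0.17 for DNAJA1 and -0.18 ± 0.25 for HSP90AA1, with limma adjusted p-values of 0.470 to 0.814 over these 7. These values moved with single libraries. HSPA1A had 0.06 without ORF replicate 3 and 0.56 without ORF replicate 2, and HSPB1 had 0.09 without ORF replicate 1 and 0.46 without MT replicate 2. Without ORF replicate 1 the fold change was 0.15 for HSPA1B, 0.13 for DNAJB1 and 0.56 for HSPH1, and that of HSP90AA1 turned to 0.13. Without ORF replicate 2 it was 0.43 for HSPA1B, 0.37 for DNAJB1 and -0.39 for HSP90AA1, and without ORF replicate 3 it was 0.15 for HSPA1B, 0.21 for HSPH1, 0.20 for DNAJA1 and -0.28 for HSP90AA1. ORF against NC and ORF against MT share the ORF libraries, so their values are not independent of each other.

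In the libraries labelled MT against NC, which share the NC libraries with ORF against NC, limma called 0 of 25310 genes (0%) and so 0 members. No member had an unadjusted p under 0.05, where 1183 genes did (4.67%, with 2.32% higher); edgeR called 0 genes (0%) and DESeq2 called 1 (0.00395%), not a member. Fold changes were positive for 5 members and for 51.5% of all genes. The members' adjusted p-values lay between 0.744 and 0.999. DNAJB1 lay higher in all 3 libraries labelled MT, against 5.7% of all genes, with 5735, 7295 and 5918 normalized reads, against 5556, 5610 and 4752 in NC (log2 fold change 0.25 ± 0.13). HSPH1 and HSP90AA1 lay lower in all 3, against 6.72% of all genes. HSPH1 had 2883, 2427 and 2978 normalized reads in the libraries labelled MT, against 3302, 3106 and 3335 in NC (-0.24 ± 0.11). HSP90AA1 had 46766, 40238 and 46461 in the libraries labelled MT, against 52138, 48262 and 54367 in NC (-0.22 ± 0.15). BAG3 had 2709, 3288 and 2748 in the libraries labelled MT and 2680, 2777 and 2410 in NC, which overlapped (0.15 ± 0.12).

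The remaining members overlapped in that comparison as well. Their log2 fold changes were 0.31 ± 0.18 for HSPA1A, 0.18 ± 0.13 for HSPA1B, -0.07 ± 0.15 for HSPA8, -0.00087 ± 0.18 for HSP90AB1, 0.25 ± 0.16 for HSPB1 and -0.11 ± 0.12 for DNAJA1. HSPB1 had 12488, 18946 and 12212 normalized reads in the libraries labelled MT and 12124, 12921 and 10902 in NC, and only MT replicate 2 was above the NC range. Without MT replicate 2 the fold change of HSPB1 was 0.05, and those of HSPA1B, DNAJB1, BAG3, HSPH1 and DNAJA1 were 0.08, 0.14, 0.06, -0.15 and -0.02. Without NC replicate 3 HSPA1A had 0.09, HSPA1B 0.07 and BAG3 0.09. DNAJA1 had -0.18 without MT replicate 3 and -0.06 without NC replicate 1.

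In some libraries the members split by base composition. HSPH1 (GC content 40.0% of the longest transcript), DNAJA1 (41.7%) and HSP90AA1 (45.2%) were below their group mean in ORF replicate 1, by 0.46, 0.29 and 0.62 on the log2 scale, and above it in ORF replicates 2 and 3. HSPB1 (64.3%), HSPA1B (58.7%), BAG3 (56.9%) and DNAJB1 (53.0%) were above their mean in ORF replicate 1, by 0.34, 0.18, 0.20 and 0.19, and below it in ORF replicate 2. HSPA1A (59.7%), the member with the fewest reads, was below its mean in both. MT replicate 2 showed the same split, with HSPB1 0.40 above its mean and HSPH1 0.19 below it. Across the 10 members the deviation from the group mean correlated with GC content at Pearson's r of 0.72, -0.77 and -0.11 in ORF replicates 1 to 3, of -0.93, 0.95 and -0.86 in MT replicates 1 to 3 and of 0.24, 0.74 and -0.63 in NC replicates 1 to 3. These points share a library and are genes, not replicates. In NC replicate 1 all 10 members were above their group mean, so no split was seen there. Across 15942 genes the same r was 0.64 in ORF replicate 1, -0.56 in ORF replicate 2 and 0.59 in MT replicate 2. After a correction of each library for GC content and transcript length, BAG3 had a log2 fold change of 0.62 ± 0.10 in ORF against NC (limma adjusted p = 0.00187) and 0.61 ± 0.10 in ORF against MT (adjusted p = 0.00415). HSPB1 then had 0.50 ± 0.12 in ORF against NC (adjusted p = 0.0190), and no other member passed. The same correction raised the calls over all genes to 6.93% in ORF against NC and 5.73% in ORF against MT. HSP90AA1 kept its sign in ORF against NC (-0.37 ± 0.19; adjusted p = 0.274). There HSPH1 had 0.27 and DNAJA1 0.28, above their uncorrected values. HSPA1A had 0.58, HSPA1B 0.33, HSPA8 0.44, DNAJB1 0.38 and HSP90AB1 0.18, below theirs. In MT against NC, DNAJB1, HSPH1 and HSP90AA1, which had not overlapped, had corrected values of 0.15 ± 0.10, -0.09 ± 0.08 and -0.17 ± 0.14. HSPB1 had 0.09 ± 0.11 there and BAG3 0.01 ± 0.08.

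**Figure D3:**
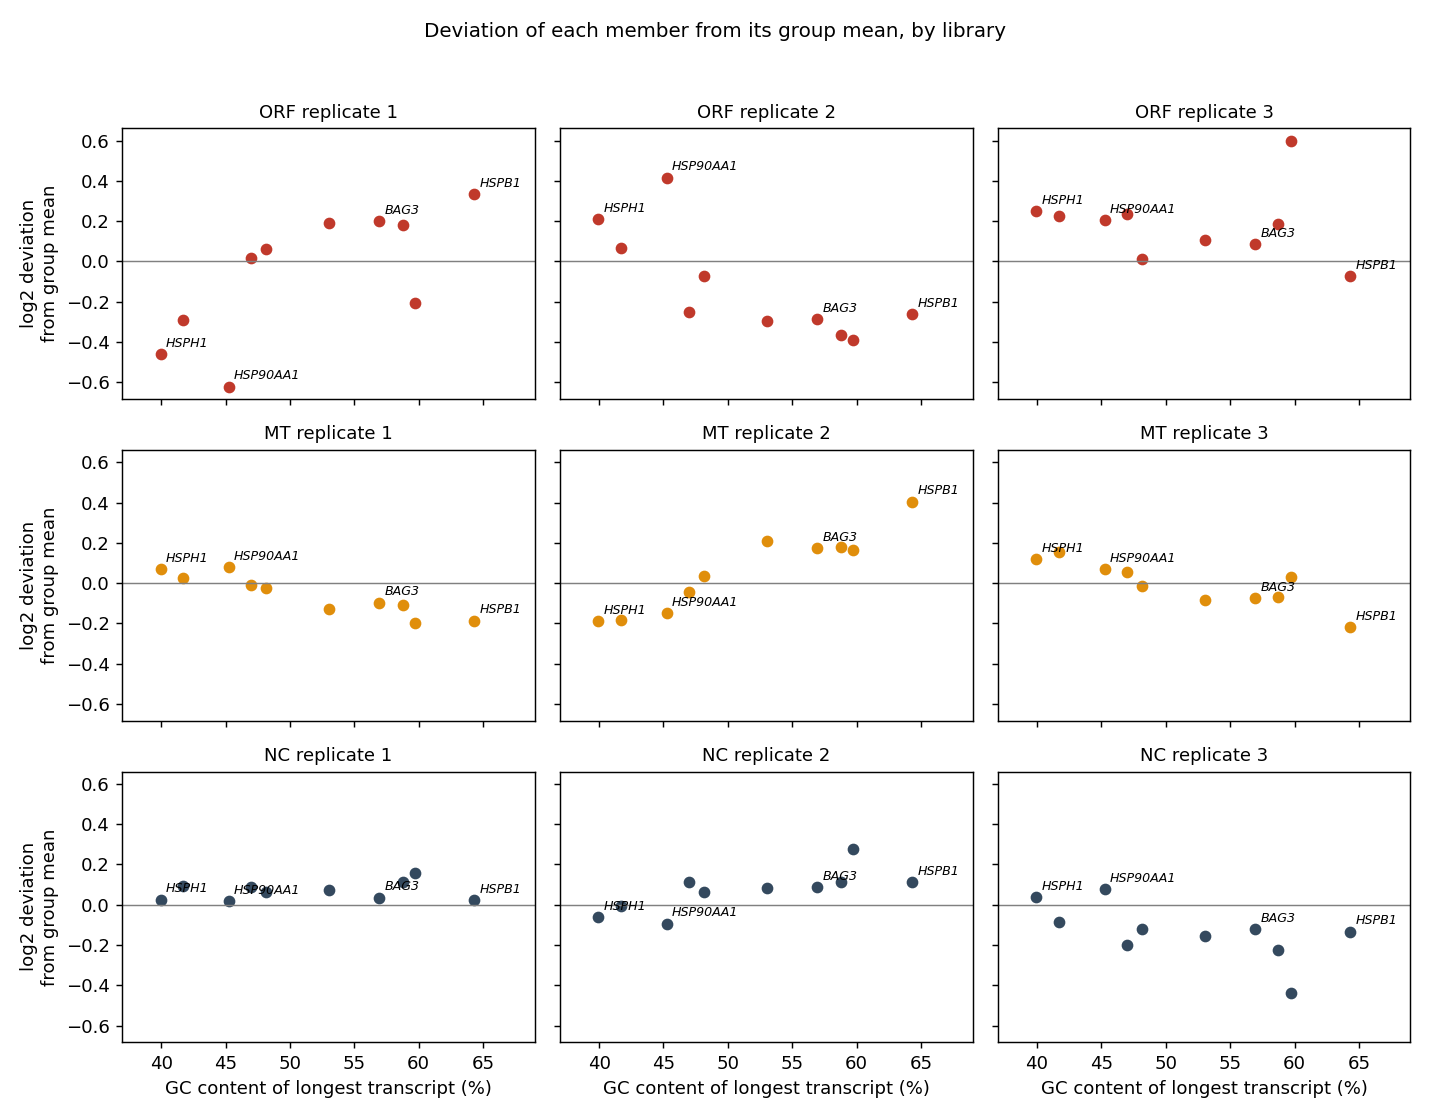
Log2 deviation of each of the 10 genes from its group mean (vertical axis) against the GC content of its longest transcript in percent (horizontal axis), in each of the 9 libraries; each point is a gene. The cloud runs upward in ORF replicate 1 and MT replicate 2 and downward in ORF replicate 2 and MT replicates 1 and 3.

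The balance of inducible to constitutive paralogs was set out in reads per kb of exon. The ratio of HSP90AA1 to HSP90AB1 was 0.107, 0.241 and 0.196 in ORF, 0.243, 0.199 and 0.240 in MT-labelled libraries and 0.255, 0.236 and 0.302 in NC. ORF replicate 1 held the lowest ratio, and ORF and NC overlapped. The log2 ratio differed by -0.61 between ORF and NC (exact two-sided permutation test, p = 0.2, adjusted over 6 tests 0.36; the smallest p that 3 against 3 allows is 0.1). Without ORF replicate 1 this difference was -0.27. The ratio of HSPA1A plus HSPA1B to HSPA8 was 0.168, 0.142 and 0.153 in ORF, 0.173, 0.218 and 0.172 in MT-labelled libraries and 0.158, 0.157 and 0.151 in NC. It was higher in all 3 libraries labelled MT than in any library of the other groups: the log2 difference was 0.26 between the libraries labelled MT and NC and -0.28 between ORF and the libraries labelled MT (exact permutation p = 0.1 and adjusted p = 0.3 for each). Without MT replicate 2 these differences were 0.15 and -0.16. Between ORF and NC the difference was -0.02 (exact permutation p = 0.9). This ratio sets HSPA1A (GC content 59.7%) and HSPA1B (58.7%) against HSPA8 (47.0%). In MT against NC their limma log2 fold changes were 0.31, 0.18 and -0.07. With the GC and length correction they were 0.15, 0.02 and -0.07. The ratio itself was not corrected for GC content, and the part of GC content in it was not tested. None of the 6 tests could pass the threshold.

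**Figure D4:**
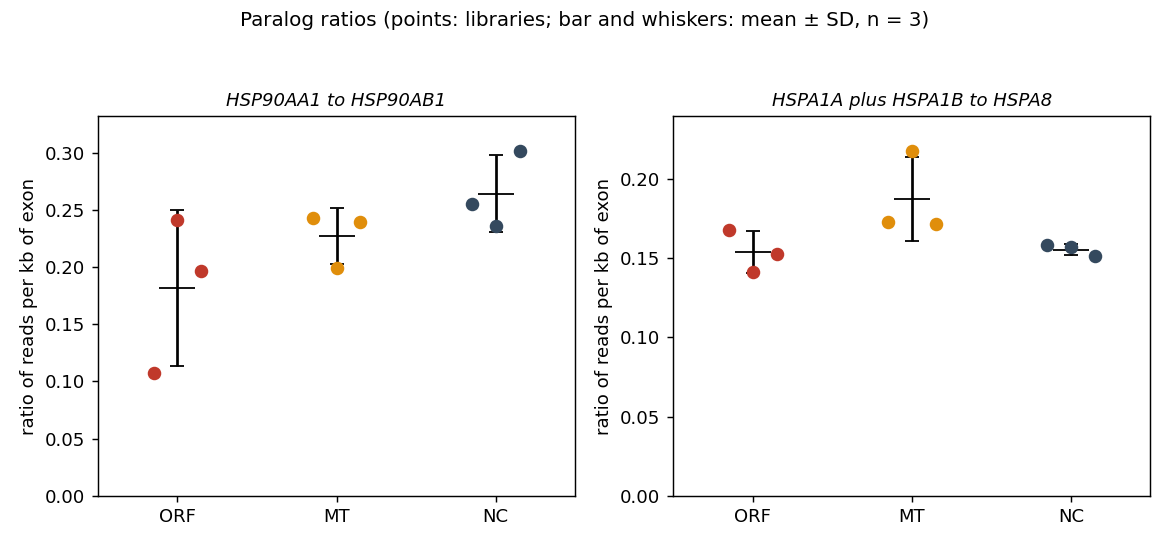
Ratios of reads per kb of exon of HSP90AA1 to HSP90AB1 and of HSPA1A plus HSPA1B to HSPA8 (linear axes from 0) in ORF, MT and NC; each point is a library, with mean ± SD of 3. The lowest HSP90 ratio is ORF replicate 1 (0.107), and the 3 highest HSP70 ratios are those of the libraries labelled MT.

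The deposited splicing tables listed 30 events of 8 members for ORF against NC and 23 events of 8 members for the libraries labelled MT against NC. HSPA1A and HSPA1B, with 1 exon each, had none. In 22 of the 30 events and 18 of the 23 every library had an inclusion level (the share of transcripts with the alternative part, from 0 to 1) of at least 0.95, and in 3 and 2 events every library was at 0.05 or less. The authors' deposited table gives an adjusted p of 1 for every one of these events. Only 2 member events, both in ORF against NC, met the limits on reads and level for a test. They are pairs of exons listed as mutually exclusive, in HSPH1 (levels 0.587, 0.535 and 0.562 in ORF, 0.538, 0.553 and 0.557 in NC) and in HSP90AB1 (0.661, 0.650 and 0.643 in ORF, 0.645, 0.661 and 0.654 in NC). Listed as single skipped exons, both HSP90AB1 exons of the pair had levels of 0.998 or more in ORF and NC. The 134-base HSPH1 exon of its pair had a level of 1 in every NC library. The levels of these pairs are therefore not shares of transcripts that carry 1 exon in place of the other. Libraries are given in the order of the table cells, which carry no replicate numbers. The groups overlapped in both events, neither was called (limma adjusted p = 0.956 and 0.991), and 0.0129% of 23203 tested events were called; in MT against NC 0.00455% of 21984 tested events were called. Neither had an unadjusted p under 0.05.

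HSPH1 has a coding exon of 132 bases (GRCh38 chromosome 13, 31143792 to 31143923) that separates the longer isoform, HSP105 alpha, from the shorter HSP105 beta, which lacks it. The junctions that tell these forms apart are, in GENCODE 29 transcripts on the minus strand, with bases of the exon in capitals:
entry to the exon, chr13:31145563-31145577 joined to chr13:31143909-31143923: aacccagacactgatAAAAATGTCCAGCAA
exit from the exon, chr13:31143792-31143806 joined to chr13:31141245-31141259: CCAGATGCTGACAAAgcaaatgaaaaaaaa
exon skipped, chr13:31145563-31145577 joined to chr13:31141245-31141259: aacccagacactgatgcaaatgaaaaaaaa
Inclusion reads numbered 274, 378 and 381 in ORF, 311, 305 and 360 in MT-labelled libraries and 387, 411 and 407 in NC. Skipping reads numbered 1, 11 and 4 in ORF, 9, 5 and 9 in MT-labelled libraries and 15, 7 and 11 in NC. The deposited inclusion levels were 0.993, 0.948 and 0.981 in ORF, 0.948, 0.970 and 0.955 in MT-labelled libraries and 0.932, 0.969 and 0.952 in NC. The exon was thus included in most transcripts of every library, the groups overlapped, and the mean level of over 0.95 kept the event out of the test.

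Reads that skip an exon were few in all groups. The exons named here were chosen after their values were seen, and none was tested. Every skipped-exon event listed for the members had skipping reads in at least 1 library. An exon skipped in 1 group alone is thus listed through that group, so its contrast with the other group was fixed in advance. The HSP90AB1 exon that holds the start codon (147 bases, GRCh38 chromosome 6, 44248630 to 44248776) was skipped in 36, 25 and 38 reads in ORF, 17, 16 and 10 in MT-labelled libraries and 14, 12 and 9 in NC. ORF lay above both other groups, which overlapped, but the share of all skipped exons with such a gap was not counted. Against these stood 42939, 38264 and 37967 inclusion reads in ORF, 35351, 37937 and 43376 in MT-labelled libraries and 37190, 42861 and 35450 in NC, so the deposited levels were 0.998 to 1 everywhere. The DNAJA1 exon of 178 bases (chromosome 9, 33026813 to 33026990) was skipped in 5, 8 and 16 reads in ORF and in 0, 0 and 0 in NC, with levels of 0.991, 0.988 and 0.979 in ORF and 1 in all 3 NC libraries. That event is not listed in the tables of the libraries labelled MT, so no reads can be given for them. An HSPH1 exon of 107 bases (chromosome 13, 31148374 to 31148480) was skipped in 0, 9 and 10 reads in ORF, 0, 1 and 0 in MT-labelled libraries and 1, 1 and 3 in NC, and an HSPA8 exon of 203 bases (chromosome 11, 123059059 to 123059261) in 19, 21 and 22 reads in ORF, 5, 10 and 12 in MT-labelled libraries and 20, 12 and 7 in NC. ORF overlapped with NC in both. BAG3 had an exon of 327 bases (chromosome 10, 119669851 to 119670177) skipped in 9, 0 and 0 reads in ORF and in none in NC, so all of them came from 1 ORF library. Conversely, a BAG3 exon of 402 bases (chromosome 10, 119672255 to 119672656) was skipped in 0, 0 and 0 reads in ORF and in 0, 7 and 0 in NC.

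**Figure D5:**
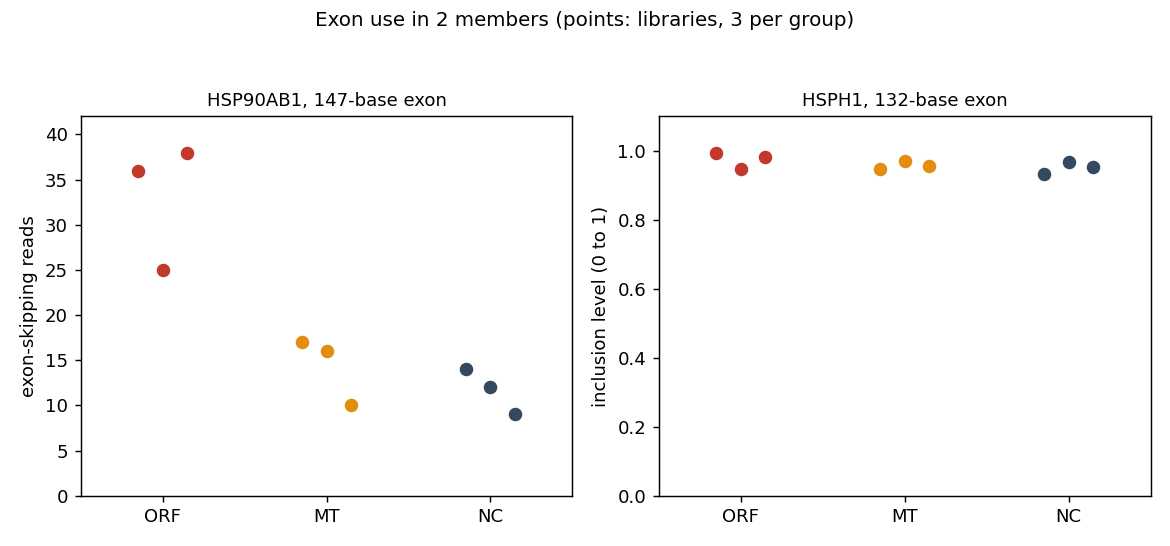
Exon-skipping reads of the 147-base HSP90AB1 exon (left) and inclusion level, from 0 to 1, of the 132-base HSPH1 exon (right) in ORF, MT and NC; each point is a library. Skipping reads of HSP90AB1 lie between 25 and 38 in ORF, above the other groups, while the HSPH1 levels overlap. The HSP90AB1 exon was chosen after its values were seen and was not tested.

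The wider chaperone network was described by 9 lists, also chosen with earlier results of these data known. In ORF against NC limma called 0 genes of any list, and edgeR called 1, ZFAND2A, an arsenite- and heat-inducible zinc finger gene, among the other genes known as HSF1 targets. It had 836, 491 and 734 normalized reads in ORF, against 353, 351 and 267 in NC (log2 fold change 1.06 ± 0.20; limma adjusted p = 0.0538, edgeR adjusted p = 0.0323). It was higher in all 3 ORF libraries. Of the 20 genes in its list, 9 had an unadjusted p under 0.05, against 15.7% of all genes, and the median log2 fold change was 0.26, against -0.04 over all genes. Several of these 20 genes, among them STIP1 and HSPD1, are also in other lists, so the counts of the lists are not independent. edgeR called 0.596% of all genes there. Of 4 BAG3 partners in selective autophagy, 1 had an unadjusted p under 0.05 (median 0.16); the autophagy receptor gene SQSTM1 had 10053, 6544 and 8041 normalized reads in ORF, against 5417, 5356 and 4578 in NC (0.66 ± 0.16; adjusted p = 0.107).

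The counts below stand against 15.7% of all genes with an unadjusted p under 0.05 and a median of -0.04 over all genes. Among 22 co-chaperones of HSP70 and HSP90, 5 had such a p in ORF against NC (median log2 fold change 0.22), and the most abundant, the HSP70 to HSP90 adaptor gene STIP1, had 0.26 ± 0.15 (limma adjusted p = 0.413). The cytosolic chaperonin and prefoldin list had 1 of 14 (median 0.18; CCT3 0.18 ± 0.15) and the other J-domain proteins 1 of 11 (median 0.21; DNAJC5 0.23 ± 0.15). The mitochondrial chaperones had 3 of 7 (median 0.25), although the most abundant of them, HSPD1, had -0.10 ± 0.17. Heat shock factors with HSBP1, a small protein that binds HSF1, had 1 of 4 (median -0.20; HSBP1 -0.01 ± 0.12). Other HSP70 and HSP110 genes had 0 of 6 (median -0.04; HSPA4 -0.05 ± 0.16), and other small heat shock proteins had 0 of 5 tested among 8 listed (median -0.03; HSPB11 -0.03 ± 0.14). The limma adjusted p-values of the genes named in this paragraph were at least 0.413.

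In ORF against MT and in MT against NC both limma and edgeR called 0 genes of the 9 lists. The list medians in ORF against MT ran between -0.10 (other small heat shock proteins) and 0.26 (other J-domain proteins), against -0.03 over all genes, and ZFAND2A had a log2 fold change of 0.84 ± 0.20 (limma adjusted p = 0.121). In MT against NC the list medians ran between -0.06 (other J-domain proteins) and 0.19 (other small heat shock proteins), against 0.01 over all genes, with ZFAND2A at 0.23 ± 0.14 (adjusted p = 0.744).

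The genes whose log2 levels over the 9 libraries were most like the mean of the 10 members were, among 11174 genes with a mean of 100 or more reads, SLC43A3 (Pearson's r = 0.95), SART3 (0.95), NUP214 (0.94), ZZEF1 (0.94) and CA5BP1 (0.94); the points share depth and base composition by library. Reads counted at pseudogene copies of the members were few. They came to 207 reads over 9 libraries at 9 HSPA8 copies (0.0617% of the HSPA8 reads) and 58 at 2 HSPB1 copies (0.0472%). Copies of the HSP90 genes, added after the values were seen, held 1243 reads for HSP90AA1 (0.317%) and 1854 for HSP90AB1 (0.186%). None of these copies with a test had an adjusted p below 0.05.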

How the data were processed

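Total RNA of 9 HCT-116 samples was sequenced on Illumina instruments, per the labels. The submitters' processing notes name the builds GRCh38 and hg38; no source used here gives the aligner, counter, annotation or strand setting. The deposited gene tables hold a normalized signal per library, made from whole counts of reads and 1 size factor per library and table; whole reads were recovered (all values within 0.1 of a whole number). The authors' fold changes are log2 values, and the authors' p-value columns come from a test that is not named. The deposited splicing tables hold reads, inclusion levels as a fraction from 0 to 1 and effective lengths, and the authors' difference of mean levels (a signed score, group minus NC); where commas in the read cells had been lost, reads were recovered by matching the levels within 0.0006 (80.3% of events for ORF, 81.2% for MT).

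Limma 3.58.1 (R 4.3.3; eBayes with trend, log2(value + 1), genes kept with a value of 1 or more in 3 or more libraries, Benjamini-Hochberg adjustment across all kept genes, threshold 0.05) was fitted to each whole table, and for ORF against MT to recovered reads divided by median-of-ratios size factors over 9 libraries. Fold changes on this scale understate changes of low genes. edgeR 4.0.16 and DESeq2 1.42.0 on recovered reads were alternatives. Splicing events that averaged 20 reads or more per group, with a mean level of 0.05 to 0.95, were tested with limma on log2 odds (pseudocount 0.5), adjusted within each of 5 event types, and called at a level difference of 0.05 or more. On simulated data the gene test recovered 98 of 100 changes of 2-fold in ORF against NC, 97 in MT against NC and 97 in ORF against MT. These simulations held 18149, 18546 and 18105 genes and gave 10, 6 and 13 false calls. The highest fold of a member was 1.63 (BAG3, ORF against NC), so these figures do not give the power for the members. In the real data ZFAND2A changed by more than 2-fold in ORF against NC and was not called by limma. Named were all 10 members, per list the genes past limma or else the most abundant, and the 5 genes most like the members' mean; ZFAND2A was named after its values were seen. For the list of HSF1 targets, the gene this rule picks is not reported here. Members and lists were chosen with earlier results of these data known. GENCODE 29 holds all gene IDs of both tables.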

Additional observations from a re-analysis of the deposited data

How the results depend on the processing

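Of 199 alternative values of the members' log2 fold changes in each comparison, 177 (ORF against NC), 195 (MT against NC) and 196 (ORF against MT) kept their sign and side of the threshold, and 18, 0 and 2 passed it. Sign changes were few: in ORF against NC quantile normalization gave a log2 fold change of -0.027 for HSPH1 and -0.090 for HSP90AB1. With 1 library left out, HSPH1 ranged between -0.039 (without ORF replicate 3) and 0.32 there, and was -0.020 without ORF replicate 2. HSP90AB1 in MT against NC ranged between -0.062 and 0.030, above 0 without MT replicate 1 or 3 or NC replicate 1 or 2. HSP90AA1 in ORF against MT ranged between -0.39 and 0.13, above 0 without ORF replicate 1. The causes were not tested. Members called in ORF against NC numbered 1 (BAG3) with edgeR (TMM or RLE on the compared libraries, TMM on 9), DESeq2, quantile normalization and limma on 9 libraries, 2 with the GC and length correction (BAG3 and HSPB1), and 0 to 4 when 1 library was left out (4 without ORF replicate 2: BAG3, HSPA1B, HSPB1 and DNAJB1). Of 24662 genes tested there, 160 were called with edgeR and RLE and 560 with DESeq2. Quantile normalization called 210 of them and the GC and length correction 1708. Of 24566 genes tested, edgeR on 9 libraries called 243 and limma on 9 libraries 226. Genes called numbered 24 to 1494 when 1 library was left out. The 1494 were called without ORF replicate 2, of 23274 genes tested. In MT against NC DESeq2 called 1 gene, and 0 were called when 1 library was left out. In ORF against MT edgeR on 9 libraries called 524 genes, DESeq2 438, quantile normalization 134, limma on 9 libraries 485 and the GC and length correction 1398, with 12 to 552 when 1 library was left out; the correction called 1 member, BAG3, there. In no comparison did every same-numbered pair of libraries deviate together: r across genes was 0.14, -0.34 and 0.12 in ORF against NC, -0.12, 0.32 and 0.31 in MT against NC, and -0.38, -0.49 and 0.18 in ORF against MT. The highest r was 0.60, between ORF replicate 1 and MT replicate 2, whose numbers differ. Base composition was not removed from these deviations, so they cannot show whether same-numbered libraries belong together. The libraries were not treated as paired in the main fits. With a replicate block limma called 301 of 24662 genes in ORF against NC, 35 of 25310 in MT against NC and 46 of 24404 in ORF against MT. Members called were 1, 0 and 0. With the block and the GC and length correction limma called 2558, 55 and 773 of these genes. Members called were then 4 (HSPA1A, HSPB1, DNAJB1 and BAG3), 0 and 1 (BAG3). No paired analysis was possible for splicing, because the table cells carry no replicate numbers. In ORF against NC 2 or 3 member events were tested in each splicing alternative and 0 were called (0 to 0 when 1 library was left out). In MT against NC no member event was tested with 1 library left out, and at most 1 in any alternative, so the 0 called there says nothing about stability. With 1 library left out the HSP90 log2 ratio difference lay between -0.86 and -0.27 (ORF against NC), -0.29 and -0.11 (MT against NC) and -0.64 and -0.06 (ORF against MT), and the HSP70 one between -0.08 and 0.04, 0.15 and 0.32, and -0.34 and -0.16 in these comparisons. These moves were smaller than the larger SD of the groups compared but not always than the smaller one.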
